A study of Saccharomyces cerevisiae with 15 samples.

Results

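The genes described here are 9 genes of phospholipid and inositol synthesis in budding yeast: INO1, ITR1, OPI1, CHO1, PSD1, PSD2, CHO2, OPI3 and CKI1. They were chosen by name from the gene probes of 2 Agilent expression arrays, and all 9 were found among the 6256 genes on the arrays. The series set RNA sequencing libraries built by different strand-specific methods against array measurements of expression, of which the arrays alone are used here. Each array took Cy3-labelled total RNA together with Cy5-labelled genomic DNA. The RNA came from BY4741, a haploid strain of mating type a that is widely used in the laboratory, grown in YPD, a rich glucose medium. The DNA is named BY4741 in one label and its strain is given as progenitor in another. Both samples share the strain, the medium and the dye assignment, and no other growth condition was compared, so the comparison is between genes. Nothing in the labels ties the arrays to separate cultures, and they lay on 1 slide. The p-values of limma, a linear model fitted over all genes, therefore reflect only how far these 2 arrays differ, and that spread may be technical. An array measures a whole culture, so a low level in every cell and a high level in few cells cannot be told apart.

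Yeast makes most of its phospholipids from CDP-diacylglycerol, an activated lipid that is joined to serine to give phosphatidylserine. Inositol, made in the cell or taken up, enters the phosphoinositides. Phosphatidylserine is decarboxylated to phosphatidylethanolamine, which is methylated stepwise to phosphatidylcholine. A parallel salvage route, the Kennedy pathway, builds phosphatidylcholine and phosphatidylethanolamine from free choline and ethanolamine. Many genes of these routes carry an inositol-sensitive promoter element, UAS-INO, which is bound by the activators Ino2 and Ino4. The repressor Opi1 acts on them when inositol is supplied, and INO1 is the classic example of a gene under this control.

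Each gene had 1 probe printed as 7 spots per array, and all 63 spots of the 9 genes on each array passed the quality filter. The level of a gene is log2(RNA/DNA) at its probe, the median over spots, minus the median over all genes of that array, so that a level of 1 is double the RNA/DNA ratio of the median gene. Values after ± are SDs between the 2 arrays throughout. Dividing by the DNA signal sets the RNA of each gene against genomic DNA at the same probe, and no correction for gene length was made. A gene was called above or below the median gene when limma gave an adjusted p below 0.05 and the level was at least 1 or at most -1. RNA intensity at the median gene was 1135 (array 1) and 1390 (array 2), and DNA intensity 4184 and 4558. RNA intensities under a floor of 17.05 on array 1 and 32.93 on array 2, set from negative control spots, would have been raised to it, and none of the 9 genes needed this. The marker genes deleted in BY4741 (HIS3, LEU2, MET17 and URA3) had DNA intensities between -3.11 and 7.39. The DNA, labelled both BY4741 and progenitor, thus gave next to no signal at the genes that BY4741 lacks. Of the mating type markers, 5 a-cell genes had RNA intensities of 3736 or more, and 3 alpha-cell genes had 65.2 or less. Having 2 arrays limits how precise any of these values can be.

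The 9 genes spanned a 48.7-fold range of RNA/DNA levels, and the gene of inositol synthesis stood alone at the low end. CHO2, CHO1 and ITR1, which encode a phospholipid methyltransferase, phosphatidylserine synthase and an inositol transporter, lay between 4.45 and 6.06 times the median gene. INO1, inositol-3-phosphate synthase, lay 8.05-fold below it. OPI3, OPI1, PSD2, PSD1 and CKI1 lay between, within 1 log2 unit of the median gene. Of the 9 genes, 3 were called above the median gene, 1 below and 5 were not called. Over all 6250 genes tested, 28.2% were called above and 31.2% below, or 59.4% in either direction. At a log2 threshold of 2 instead, 3 of the 9 genes were still above and 1 below, against 12.4% and 20.4% of all genes, or 32.8% in either direction. The median level of the 9 genes was 0.54, where the median of all genes is set to 0. The limma adjusted p was below 0.05 for all 9, so the log2 threshold decided which were called.

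**Figure D1:**
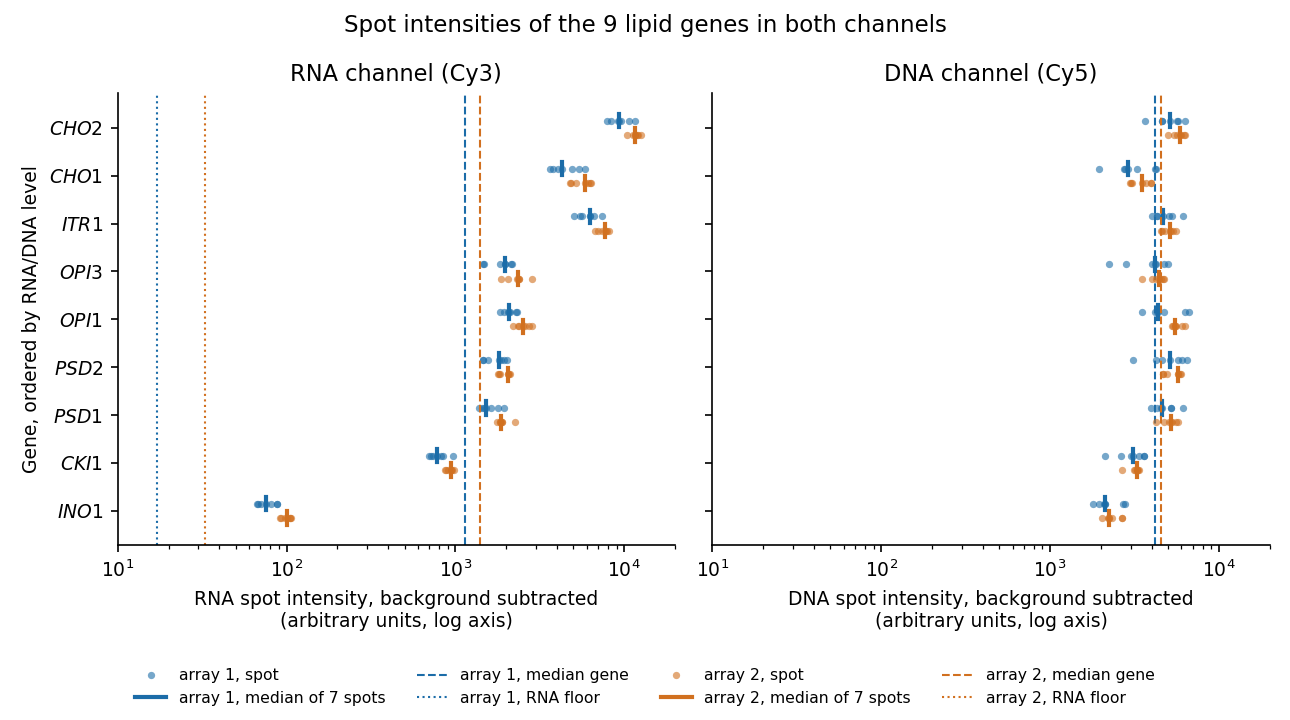
Each point is 1 spot (7 per gene and array) of the 9 lipid genes, with background-subtracted intensity in arbitrary units on a log axis, RNA in the left panel and DNA in the right. Short bars are medians over spots, dashed lines the median gene and dotted lines the RNA floor. RNA medians run from 75.8 to 9370 on array 1, while DNA medians run only from 2113 to 5154.

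Spots of 1 gene mostly varied more on array 1 than on array 2. The median SD of log2(RNA/DNA) over the spots of a gene was 0.23 on array 1 and 0.11 on array 2. ITR1 was the exception, with 0.0564 on array 1 and 0.0977 on array 2. CHO2 spots ran from 7957 to 11580 in RNA on array 1 and from 10410 to 12623 on array 2, over DNA spots from 3639 to 6288 and from 5021 to 6283. INO1 spots ran from 66.5 to 88.2 in RNA on array 1 and from 91.4 to 106 on array 2, over DNA spots from 1785 to 2782 and from 2032 to 2668. The RNA spots of these genes, the highest and the lowest of the 9, thus lay far apart on both arrays while their DNA spots came within a few-fold of each other. CKI1 had the largest spot SD, 0.36 on array 1, and CHO1 the smallest, 0.0446 on array 2.

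Inositol supply joined the lowest of the 9 genes, INO1, with one of the highest, ITR1. INO1 (YJL153C), the first enzyme of inositol synthesis, gave RNA signals of 75.8 (array 1) and 100.4 (array 2), over DNA signals of 2113 and 2245. Its level was -3.08 on array 1 and -2.94 on array 2, or -3.01 ± 0.10 (SD, n = 2), with a limma adjusted p of 7.80e-05. Both arrays placed INO1 far below the median gene and below each of the other 8 genes.

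The INO1 signal was weak, though above the negative control spots. Its RNA lay 4.45 times above the floor on array 1 and 3.05 times above it on array 2. The lowest of its 7 spots was 66.5 on array 1 and 91.4 on array 2, against a highest negative control spot of 49.8 and 76.8 among 153. None of the 153 negative control spots thus reached the lowest INO1 spot on either array. INO1 also had the lowest DNA signal of the 9 genes, at percentile 6.19 of all genes, which raises an RNA/DNA ratio. By RNA alone INO1 was lower still, at -3.85. Of the alpha-cell genes, STE3 gave RNA signals of 55.9 (array 1) and 65.2 (array 2), over DNA signals of 1591 and 1773. INO1 RNA was thus not far above that of a gene of the other mating type. MF(ALPHA)1, at 9.51 and 14.5, and MF(ALPHA)2, at 32.9 and 40.4, had lower RNA signals. Whether any of the INO1 signal came from background or from RNA of other genes binding the probe was not tested.

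ITR1 (YDR497C), the main inositol transporter of the plasma membrane, gave RNA signals of 6255 (array 1) and 7660 (array 2), over DNA signals of 4635 and 5154. Its level was 2.15 on array 1 and 2.16 on array 2, or 2.16 ± 0.00414 (SD, n = 2), with a limma adjusted p of 6.54e-05. ITR1 thus lay well above the median gene, and it was the member with the smallest difference between arrays. INO1 minus ITR1 was -5.23 on array 1 and -5.09 on array 2 on the log2 scale, a 35.8-fold lower RNA/DNA ratio for INO1. By RNA alone the mean difference was -6.31, or 79.3-fold. ITR2, a second inositol transporter similar to ITR1, was also above the median gene, at 1.23 ± 0.08. ITR1 exceeded ITR2 by 0.87 on array 1 and 0.99 on array 2. Since the transporters are similar in sequence, signal at their probes may be shared.

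CHO1 (YER026C), which joins serine to CDP-diacylglycerol, gave RNA signals of 4260 (array 1) and 5816 (array 2), over DNA signals of 2909 and 3518. Its level was 2.28 on array 1 and 2.295 on array 2, or 2.29 ± 0.01, with a limma adjusted p of 6.26e-05. CHO1 was thus well above the median gene on both arrays. The DNA signal at the CHO1 probe stood at percentile 25.3 of all genes, and by RNA alone CHO1 was at 1.99.

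The next step, decarboxylation of phosphatidylserine, was carried by genes close to the median gene. PSD2 (YGR170W), the decarboxylase of the endosomal and vacuolar system, gave RNA signals of 1807 (array 1) and 2050 (array 2), over DNA signals of 5154 and 5690. Its level was 0.27 and 0.20, or 0.23 ± 0.05, with a limma adjusted p of 0.0108. PSD1 (YNL169C), the mitochondrial decarboxylase, gave RNA signals of 1525 (array 1) and 1852 (array 2), over DNA signals of 4609 and 5197. Its level was 0.16 and 0.14, or 0.15 ± 0.02, with a limma adjusted p of 0.0213. PSD1 changed sign when genes at the RNA floor were left out, to -0.05, so its side of the median gene is not settled. The decarboxylases differed from each other little: PSD1 was lower than PSD2 by 0.11 on array 1 and 0.06 on array 2, less than the larger SD over spots of the pair, 0.21.

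The 2 methyltransferases of the route to phosphatidylcholine stood apart from each other. CHO2 (YGR157W), which adds the first methyl group to phosphatidylethanolamine, gave RNA signals of 9370 (array 1) and 11623 (array 2), over DNA signals of 5151 and 5869. Its level was 2.61 on array 1 and 2.59 on array 2, or 2.60 ± 0.01, with a limma adjusted p of 5.57e-05. This was the highest level of the 9 genes, and 445 of all genes, or 7.12%, were higher. OPI3 (YJR073C), which adds the remaining methyl groups, gave RNA signals of 1973 (array 1) and 2334 (array 2), over DNA signals of 4166 and 4441. Its level was 0.80 and 0.72, or 0.76 ± 0.06, with a limma adjusted p of 0.000590, and it was not called. CHO2 exceeded OPI3 by 1.80 on array 1 and 1.88 on array 2, a 3.58-fold higher RNA/DNA ratio. With RNA alone the difference was 2.28 ± 0.05. Consecutive enzymes of 1 route thus differed by far more than either gene did between arrays.

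CKI1 (YLR133W), the choline kinase that opens the Kennedy pathway, gave RNA signals of 777 (array 1) and 940 (array 2), over DNA signals of 3091 and 3262. Its level was -0.28 and -0.16, or -0.22 ± 0.08, with a limma adjusted p of 0.0206. CKI1 was slightly under the median gene on both arrays and was not called. EKI1, the related ethanolamine kinase, was at 0.14 ± 0.14, and CKI1 minus EKI1 was -0.31 on array 1 and -0.40 on array 2.

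OPI1 (YHL020C), the repressor of UAS-INO genes, gave RNA signals of 2078 (array 1) and 2517 (array 2), over DNA signals of 4338 and 5513. Its level was 0.63 and 0.46, or 0.54 ± 0.12, with a limma adjusted p of 0.00358. OPI1 had the largest spread between arrays of the 9 genes, with a difference of 0.17. The activator genes lay near it: INO4 was at 0.65 ± 0.01 and INO2 at 0.09 ± 0.02. OPI1 minus INO4 was -0.03 on array 1 and -0.18 on array 2, and OPI1 minus INO2 was 0.55 and 0.36. By RNA alone INO4 and INO2 were both under the median gene, at -0.48 and -0.43, and OPI1 was at 0.86. The order of repressor and activators was therefore not the same in RNA/DNA and in RNA alone, and no ranking of them is given.

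**Figure D2:**
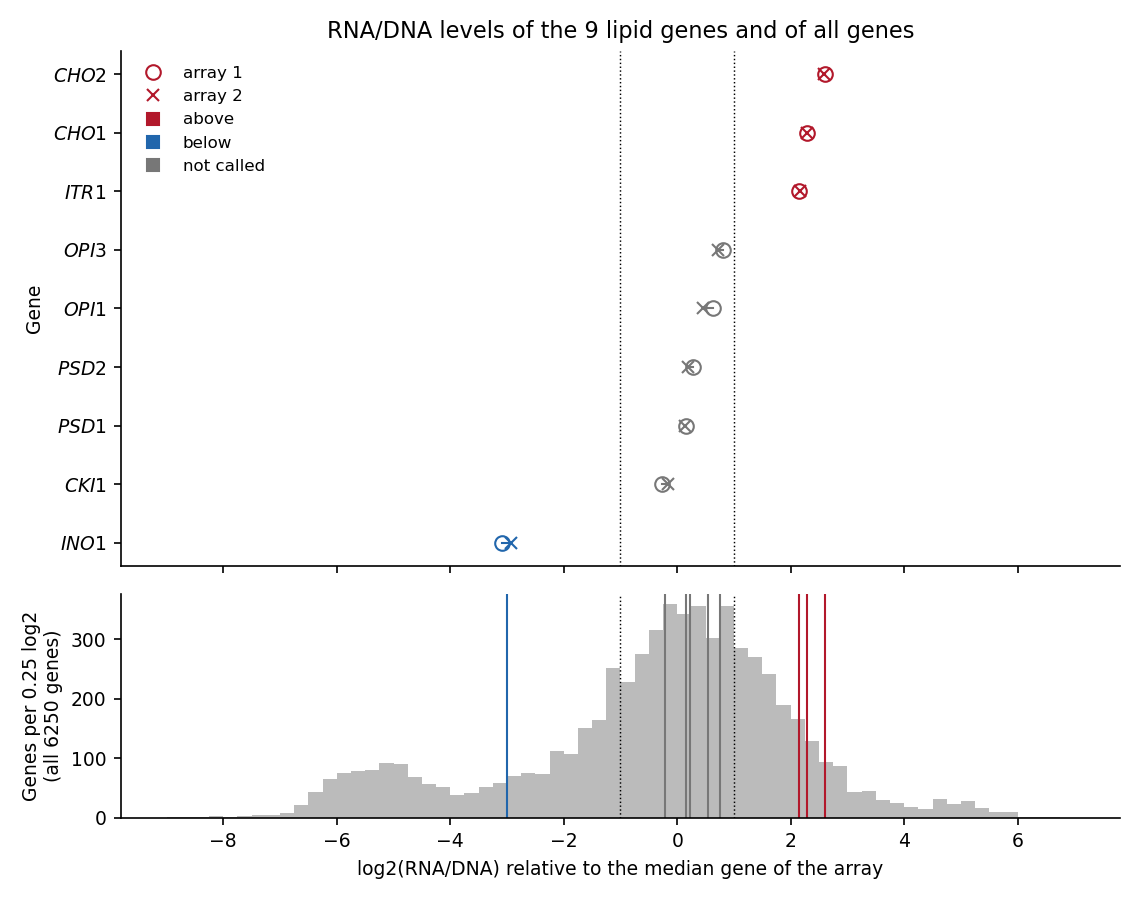
The upper panel gives the level of each lipid gene, log2(RNA/DNA) relative to the median gene, on array 1 (circles) and array 2 (crosses), coloured by call, with dotted lines at -1 and 1. The lower panel counts all 6250 genes per 0.25 log2, with lines at the mean levels of the 9 genes. CHO2, CHO1 and ITR1 sit between 2.16 and 2.60, and INO1 sits on the low flank of the main body of genes, at percentile 15.1.

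In order of RNA/DNA level the genes ran CHO2, CHO1, ITR1, OPI3, OPI1, PSD2, PSD1, CKI1 and INO1. Each of the 8 neighbouring pairs in this order kept its direction on both arrays, with a difference above the sum of the SDs between arrays. With gradient-corrected signal 7 of the 8 pairs met this standard. The SD over the spots of a gene is a harder standard, and 4 of the 8 differences exceeded the larger spot SD of the pair. CHO2 and CHO1, CHO1 and ITR1, OPI3 and OPI1, and PSD2 and PSD1 did not. Neither SD covers differences between probes, since each gene had 1 probe. By RNA alone CHO1 minus ITR1 turned to -0.48 and OPI3 minus OPI1 to -0.09. The steps that separate the genes clearly were ITR1 over OPI3, by 1.40, and CKI1 over INO1, by 2.79. No test of these differences was run, since an exact permutation test over 2 arrays cannot reach 0.05. The median SD between arrays was 0.0532 for the 9 genes and 0.0427 for all genes. RNA intensity was higher on array 2 for all 9 genes, by 1.13 to 1.37 times, and DNA intensity by 1.06 to 1.27 times. Over all genes above the floor the median ratio of array 2 to array 1 was 1.22 in RNA and 1.09 in DNA.

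The other genes of lipid synthesis were described from 8 lists holding 69 genes, all measured and none at the RNA floor. The lists overlap, since 5 of these genes stand in 2 lists each. Of the 69, 28 were called above the median gene, 7 below and 34 were not called. This is 40.6% above and 10.1% below, against 28.2% and 31.2% of all genes. The median level of the 69 was 0.53. All genes include 548 at the RNA floor on either array, whereas none of the 69 was there. Shares of all genes without those at the floor are not given. Of the 9 genes, 33.3% were above and 11.1% below. The lists differed from each other as follows, and each count is to be read against the 28.2% and 31.2% of all genes.

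The S-adenosylmethionine cycle, which supplies the methyl groups for CHO2 and OPI3, was the list with the highest median, 2.78. All 5 of its genes were called above the median gene. SAH1, which clears the by-product of methylation, was at 3.56 ± 0.11 and MET6, methionine synthase, at 2.93 ± 0.12. SAM1 and SAM2, the S-adenosylmethionine synthetases, were at 2.63 ± 0.04 and 2.24 ± 0.11. These copies are nearly identical, and each probe may therefore also catch RNA of the other. OPI3 lay below every gene of this list, while CHO2 lay within their range.

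In the supply of phosphatidate and CDP-diacylglycerol, 5 of 13 genes were above the median gene and none below, with a median of 0.46. ALE1, a lysophospholipid acyltransferase, was at 2.27 ± 0.04, and AYR1, a reductase that makes lysophosphatidate, at 2.22 ± 0.01. CDS1, the CDP-diacylglycerol synthase of the endoplasmic reticulum, was called above at 1.08 ± 0.04, but not with the centre set on genes above the floor or with genes at the floor left out, at 0.89, nor by limma treat, with an adjusted p of 0.0969. TAM41, which makes CDP-diacylglycerol in mitochondria, was at -0.74 ± 0.01 and GPT2, an acyltransferase, at -0.43 ± 0.15, and neither was called. CHO1, which draws on this supply, lay above CDS1.

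Of the 6 Kennedy pathway genes other than CKI1, 1 was called above and none below, with a median of 0.59. CPT1, cholinephosphotransferase, was at 1.99 ± 0.07. HNM1, the choline transporter, was at 0.95 ± 0.06 and not called. By RNA alone it stood at 1.46 and passed as above. PCT1, which makes CDP-choline, was at -0.24 ± 0.06. In RNA/DNA the choline steps thus ran from PCT1 and CKI1, slightly under the median gene, to CPT1, a little under ITR1. By RNA alone PCT1 was over the median gene at 0.31. CPT1, at 1.44, was then further under ITR1, at 2.46.

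The cardiolipin synthesis list, which also holds the remodelling genes CLD1 and TAZ1, had the lowest median, -1.26. Of its 5 genes, 3 were called below and none above. CLD1 and TAZ1 were the lowest of them, and PGS1 was the only gene of synthesis called below. CLD1, a cardiolipin lipase, was at -3.20 ± 0.13 and TAZ1, an acyltransferase that remodels cardiolipin, at -1.84 ± 0.01, although TAZ1 was not called with the RNA channel alone, at -0.79. PGS1, which like CHO1 uses CDP-diacylglycerol, was called below at -1.26. CRD1, cardiolipin synthase, was at 0.39 ± 0.08 and GEP4 at -0.08 ± 0.05, and neither was called.

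Among 15 genes of inositol supply and phosphoinositide turnover, 4 were called above and 4 below, with a median of -0.03. That is 26.7% in each direction, near the 28.2% above and 31.2% below of all genes. SAC1, a phosphoinositide phosphatase, was at 2.32 ± 0.12. MSS4, which makes phosphatidylinositol bisphosphate, was at 1.45 ± 0.05 and not called with the RNA channel alone, at 0.87. GIT1, a transporter of glycerophosphoinositol, was at -3.92 ± 0.09 and INM2, an inositol monophosphatase that acts after INO1, at -2.51 ± 0.03. By RNA alone INM2 was at -1.08. INO1 lay between them in RNA/DNA. GIT1 and CLD1 were the only genes of the 69 with an RNA/DNA level below that of INO1. Their RNA signals were also weak, at 65.4 (array 1) and 80.3 (array 2) for GIT1 and 59.9 and 83.9 for CLD1. The highest negative control spots were at 49.8 and 76.8.

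Of 8 regulators of UAS-INO genes, 4 were called above and none below, with a median of 0.87. SCS2, the membrane protein that holds Opi1 at the endoplasmic reticulum, was at 2.19 ± 0.02, and SNF1, a protein kinase, at 1.88 ± 0.07. UME6, a repressor, was at -0.59 ± 0.08 and not called. Among other genes with a textbook UAS-INO element, 6 of 9 were called above and none below, with a median of 1.99. Of these 9, CDS1, HNM1, CPT1, EPT1 and INO2 also stand in another of the lists. CDS1 and CPT1 thus count as above in both. FAS1 and ACC1, of fatty acid synthesis, were at 3.49 ± 0.04 and 3.17 ± 0.00267. EPT1, at 0.35 ± 0.03, and INO2 were the lowest of that list and were not called. INO1 lay at -3.01, so genes that share this element ran from -3.01 to 3.49. Of the 13 phospholipase and lipid transfer genes, 5 were above and none below, with a median of 0.53, from SEC14, a phosphatidylinositol and phosphatidylcholine transfer protein, at 3.001 ± 0.05 and PDR16 at 1.99 ± 0.02 to PGC1 at -0.09 ± 0.11 and UPS1 at -0.28 ± 0.06.

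**Figure D3:**
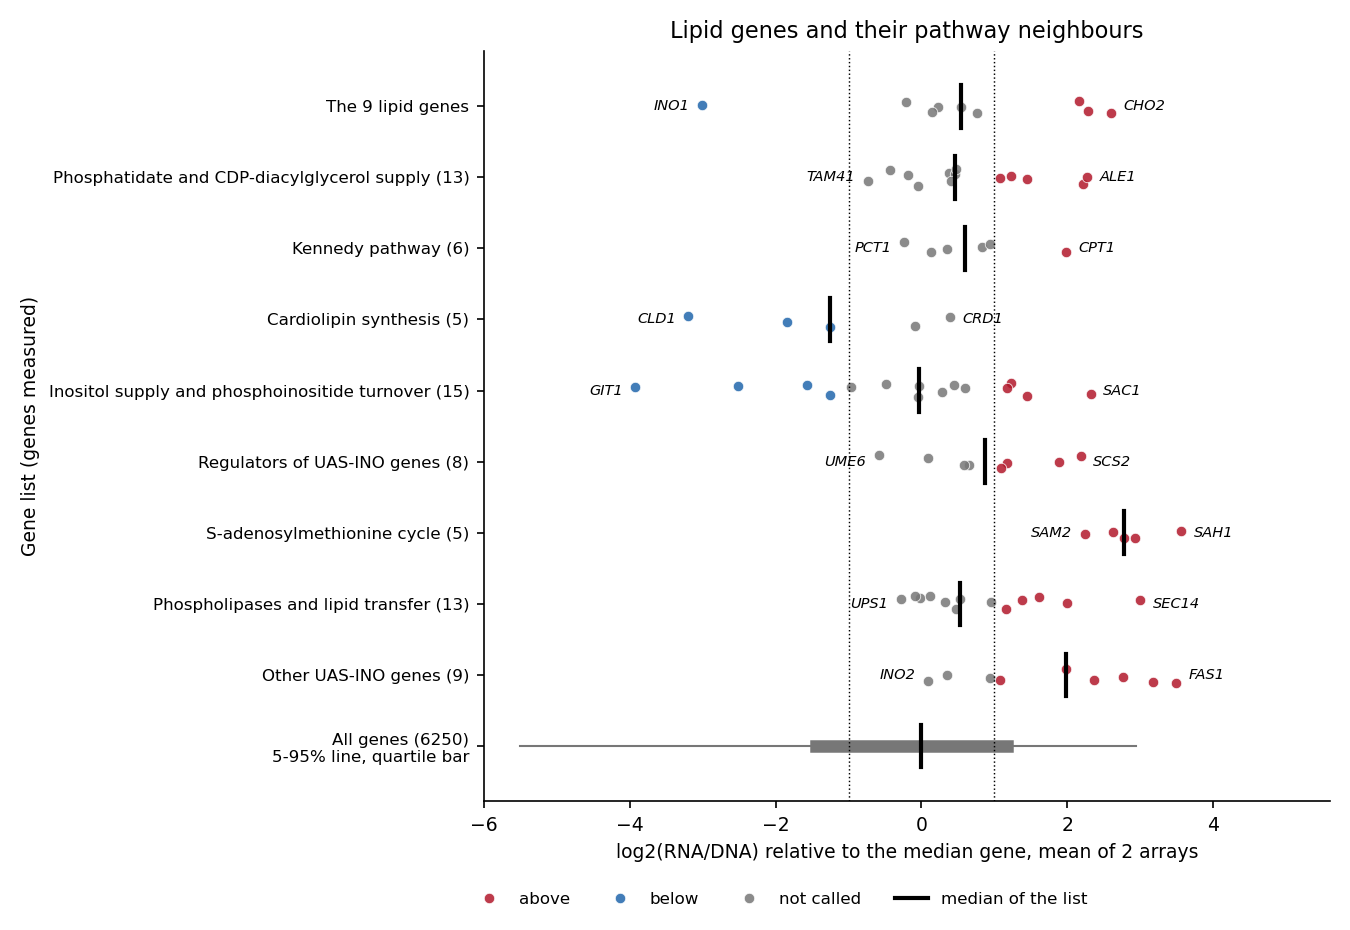
Each point is the mean level of 1 gene over 2 arrays, log2(RNA/DNA) relative to the median gene, coloured by call. Rows are the 9 lipid genes, the 8 lists with the number of genes measured, and all genes (line from percentile 5 to 95, bar over the quartiles). Black bars are medians, which run from -1.26 for the cardiolipin synthesis list to 2.78 for the S-adenosylmethionine cycle, with 0.54 for the 9 genes.

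The upstream neighbours of the 9 genes on the chromosome were also looked up, and 8 were measured. By the gene order of RefSeq, 3 of the 9 have a divergent upstream neighbour, with which they share the intervening promoter region, and 6 a tandem one. Of the divergent neighbours, 2 were measured. MOG1, next to OPI3, was at 0.37 ± 0.03 and not called. USB1, next to CKI1, was called below at -1.50 ± 0.09. SNA3, the tandem upstream neighbour of INO1, was called above at 2.31 ± 0.02 while INO1 was called below. ITR1 showed the reverse: SEC20, its tandem neighbour, was called below at -1.23 ± 0.05, but not by RNA alone, at -0.41. PTI1, upstream of CHO2, was at -0.39 ± 0.07, GAL83, upstream of CHO1, at -0.19 ± 0.15, and neither was called. APM2, upstream of OPI1, stood at -0.94 ± 0.11, short of a call. It passed as below by RNA alone (-1.02), with gradient-corrected signal (-1.05) and with genes at the floor left out or the centre set on genes above it (-1.14). FMP41, upstream of PSD1, stood at 0.64 ± 0.05, also short of a call, and passed as above by RNA alone at 1.30.

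The genes most like the highest and the lowest member were sought by the Euclidean distance over 4 values, log2 RNA and log2 DNA on each array. Nearest to CHO2 were REE1 at a distance of 0.0758, URA4 at 0.107 and SNC2 at 0.114, with levels of 2.64, 2.59 and 2.55. Nearest to INO1 were YOL106W at 0.132, FMP33 at 0.217 and FKS3 at 0.219, with levels of -2.98, -2.77 and -3.06. With 1 condition and 2 arrays, this likeness is one of signal strength alone.

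**Figure D4:**
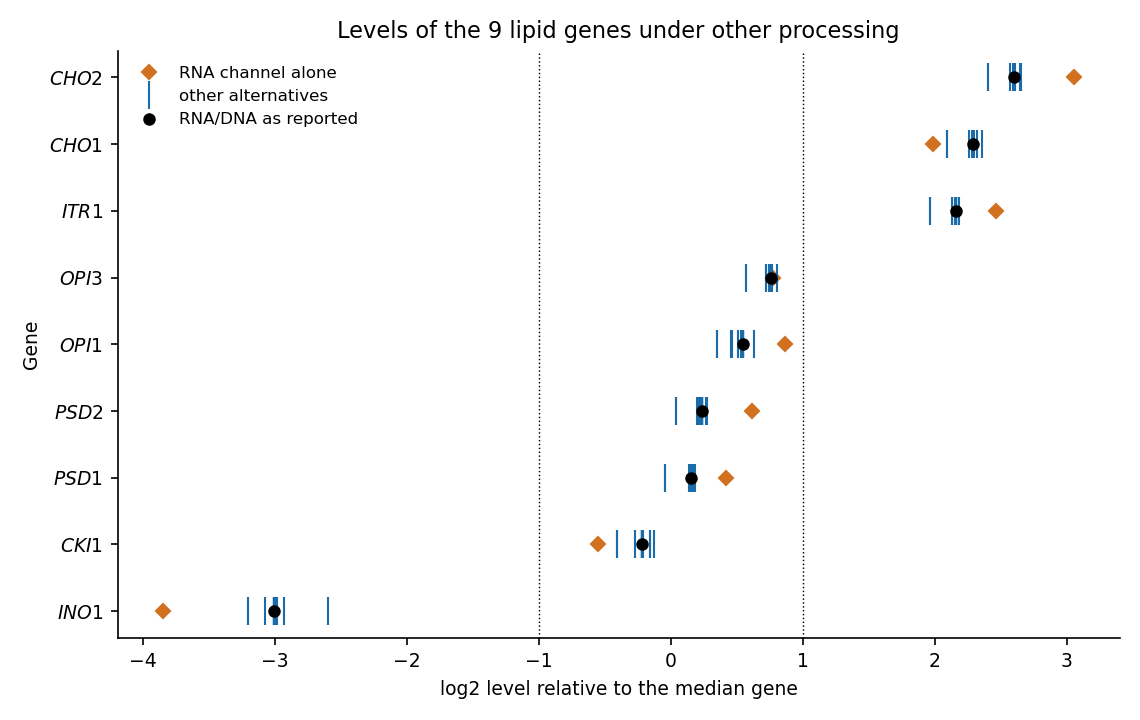
For each of the 9 genes the black point is the level as reported, the orange diamond the level from the RNA channel alone, and blue ticks the other 15 alternatives, all in log2 units relative to the median gene, with dotted lines at -1 and 1. CHO2 ranged from 2.40 to 3.05 and INO1 from -3.85 to -2.60, each staying on its side of the dotted lines.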

How the data were processed

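Of 15 samples, the 2 arrays (replicates of 1 group) were analysed, and the 13 sequencing libraries were not analysed here. The submitters' processing notes name Agilent Feature Extraction 10.5.1.1. The deposited intensity of a spot used here has a spatially fitted background taken off and may be below 0, per the file headers. A deposited gradient surface signal links these values to the gradient-corrected intensities, per the file headers. Other columns of the deposited files give flags and spot positions. The file headers record no dye normalization. RNA and DNA kept the same dye on both arrays, so effects of dye and of molecule cannot be told apart. Neither a genome build nor probe sequences are given in the sources used here. Coordinates and sequences are therefore not printed.

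Spots with weak DNA, saturation or non-uniformity in either channel on either array were dropped, which kept 43721 of 43792 gene spots and 6250 genes. The RNA floor is 3 SD of 153 negative control spots. The test is an intercept-only limma fit (version 3.58.1, R 4.3.3; two-sided, Benjamini-Hochberg over all genes). Python 3.11.15, numpy 2.4.6, pandas 2.3.3 and matplotlib 3.10.9 did the rest. The fit was tested on simulated data with known shifts. Names were matched to RefSeq R64 of strain S288C (5756 of 6256). Named from each list are the 2 highest and 2 lowest genes, with INO2, INO4, ITR2, SAM1, SAM2 and HNM1. CDS1 and PGS1 were named after their values were seen. The genes and the lists were chosen with earlier results of these data known. A further gene of the set is not reported here. SFH1 was taken off the lipid transfer list after its values were seen, because the gene of that symbol on the arrays is a chromatin remodelling subunit.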

Additional observations from a re-analysis of the deposited data

How the results depend on the processing

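All 16 alternatives left INO1 below and CHO2, CHO1 and ITR1 above, with ranges of -3.85 to -2.60, 2.40 to 3.05, 1.99 to 2.36 and 1.96 to 2.46. Not all of them could move a level. The other call thresholds and limma variants reuse the same levels, and the other floors do not act on the 9 genes. A log2 threshold of 2 left 14 list genes above and 3 below, with 12.4% of all genes above and 20.4% below. Calling on the adjusted p alone gave 45 and 15 list genes, and 7 and 2 of the 9 genes. The share of all genes that pass on the adjusted p alone is not given, so these counts do not set the genes apart. Under both settings the counts change because the threshold itself moves. Over the other alternatives 3 of the 9 genes were above and 1 below, including without either array, where calls rest on the log2 threshold alone. List genes called above ranged from 23 to 28 and below from 6 to 8. Leaving out genes at the floor, or centring on genes above it, moved levels by -0.19. PSD1 then stood at -0.0453, EKI1 at -0.0586 and INO2 at -0.103. With the RNA channel alone CRD1 was at -0.65, EKI1 at -0.17, GEP4 at 0.0486, INO2 at -0.43, INO4 at -0.48, PCT1 at 0.31, PGC1 at 0.47 and GAL83, upstream of CHO1, at 0.95, each with its sign turned. By RNA alone CHO1 minus ITR1 was -0.48 and OPI3 minus OPI1 -0.0917, so 6 of 8 neighbouring pairs kept their order. With gradient-corrected signal, 7 of 8 pairs kept their order with a difference beyond the spread between arrays. RNA alone moved INO1, among the 9 genes, and 15 of 43 other named genes by over 1.5-fold. This setting leaves out the division by DNA signal. Why the DNA signal differed between probes was not tested. No paired analysis was possible because the arrays form 1 group. INO1 was at -2.60 without background subtraction and at -3.85 by RNA alone.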
